A study of Drosophila melanogaster with 9 samples.

Results

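Ovaries of young Drosophila melanogaster females were sampled here through 3 poly(A) RNA libraries, each made from whole ovary lysate and labelled Input, out of 9 libraries in an RNA immunoprecipitation series. The 3 were taken by their titles and by the Input value of their source label, and the other 6 (FLAG and control IgG pulldowns) were not analysed here. All flies had the genotype aramis::GFP::FLAG, in which ais (also called aramis), a DEAD-box RNA helicase gene, is fused to GFP and FLAG tags, so no untagged ovary and no other genotype stood beside them. The ovaries were dissected in PBS 1 to 3 days after eclosion, the emergence of the adult from the pupal case, and each Input was 10% of a lysate set aside before the pulldown. The series' design text has Larp, not aramis, as the protein with the tag, and the sample labels were followed. The labels do not say how many females went into a lysate or whether the lysates came from separate crosses, so the spread between the 3 libraries may be partly technical. With 1 group there was no comparison between conditions and no test; all values describe these 3 libraries.

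A fly ovary is a bundle of ovarioles, tubes in which egg chambers of increasing age are lined up behind a germarium that holds the stem cells. Each egg chamber has a germline cyst, whose nurse cells load an oocyte with mRNA and protein, inside an epithelium of somatic follicle cells. The follicle cells take part in yolk production, secrete the vitelline membrane and then the chorion of the eggshell, and lay down a basement membrane on their outer face. Thin muscle sheaths wrap the ovarioles and the whole organ. A lysate of whole ovaries therefore mixes germline RNA with RNA of follicle cells, stalk and escort cells, muscle and any attached tissue, and in such bulk samples fewer cells of a type and less RNA per cell cannot be told apart.

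Levels are given as CPM, the counts of a gene per 1000000 counts of its library after TMM scaling, which is edgeR's correction for differences in library make-up. The libraries held 42692128, 38995174 and 47080956 counts in replicates 1, 2 and 3, and 3 counts, the limit that a count of 0 allows, corresponded to 0.0637 to 0.0769 CPM. Of 17024 gene IDs in the tables, 12207 had a count in at least 1 library and 4817 had none. ais, the gene of the tagged protein (chr3L:17802490-17804715, minus strand, dm6), stood at 79.6, 78.2 and 81.2 CPM. Its level was 79.7 ± 1.51 CPM (SD, n = 3) and its rank 2922.

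Replicate 3 stood apart from the other pair. The correlation of log2 CPM across genes was 0.998 for replicates 1 and 2, against 0.994 for 1 and 3 and 0.995 for 2 and 3; genes are not independent replicates, so these are descriptions. The biological coefficient of variation, edgeR's measure of relative spread between replicates beyond counting error, was 0.0717 over 8236 genes. It was 0.0403 without replicate 3, 0.0819 without replicate 1 and 0.0867 without replicate 2. Replicate 3 also differed by gene length. Among genes of at least 10 CPM, the median level in replicate 3 over the mean of replicates 1 and 2 was 1.10 for the 711 genes with up to 1000 exonic bases, 1.01 for the 1328 with over 2000 and up to 3000, and 0.929 for the 165 with over 10000. For replicate 1 over replicate 2 the same medians were 1.01, 1.01 and 0.965. The share of the length trend in the differences described below was not tested. For the chorion, basement membrane and muscle sums and for the varying genes, values without replicate 3 are also given.

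The transcriptome was broad, with a short head of very abundant transcripts. Mean levels reached at least 1 CPM for 7504 IDs, at least 10 CPM for 6278, at least 100 CPM for 2416 and at least 1000 CPM for 124. The 10 most abundant IDs held 8.34% ± 0.201 of all counts (SD, n = 3), the 100 most abundant 24.96% ± 0.398 and the 1000 most abundant 61.2% ± 0.254. Between 544 and 565 IDs held 50% of the counts of a library, and 3452 to 3462 held 90%. Protein-coding genes took 91.9% ± 0.0114 of the counts and genes annotated as ncRNA 0.144% ± 0.00360. By chromosome, 51.7% of the X-linked IDs and 59.3% of the IDs on the small chromosome 4 had a mean of at least 1 CPM, against 38.6% to 45.3% on the arms of chromosomes 2 and 3. These shares count IDs of every class, noncoding ones included, and were not computed for protein-coding genes alone.

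The top of the ranking mixed mitochondrial, translation, eggshell and maternal transcripts. The most abundant ID was mt:lrRNA, the large ribosomal RNA of the mitochondrion, at 24586, 24841 and 25412 CPM. FBgn0000556, an ID that the annotation used here does not name, followed at 18820, 18040 and 19162 CPM. eEF2, the translation elongation factor that moves the ribosome along the mRNA, stood at 6277, 6241 and 5906 CPM, and Hsc70-4, the constitutive cytosolic Hsp70 chaperone, at 5828, 5733 and 5446 CPM. Yp2, a yolk protein gene, stood at 5392, 5552 and 5374 CPM. In these 5 the libraries lay within 1.07-fold of each other. Next came the chorion genes Cp15 and Cp38, the cytochrome oxidase subunit genes mt:CoI (4674 ± 178 CPM) and mt:CoIII (3965 ± 261 CPM), and Act5C, a cytoplasmic actin gene (3883 ± 96.6 CPM; fly actin genes are near-identical, so the split of reads between them is uncertain). Of the 20 most abundant IDs, 6 were in the follicle cell lists, 4 in the germline lists, 7 in the lists of housekeeping genes, 1 had no name, and CNBP (2838 ± 125 CPM), which encodes a zinc finger nucleic acid binding protein, and dhd (2710 ± 281 CPM), the female germline thioredoxin deadhead, were in no list.

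CPM favours long transcripts, so genes were set against each other as CPM per kilobase of exon. On that scale 12 of the 20 most abundant IDs kept a place among the highest 20. mt:lrRNA led with 18842 ± 320 CPM per kilobase. Short eggshell transcripts came directly after it: Cp15 with 9900 ± 1983 and Vm34Ca with 6741 ± 714 CPM per kilobase. The other chorion and vitelline membrane genes among the highest 20 were Vm26Aa (5011 ± 267), Cp38 (3932 ± 908), Vm26Ab (3144 ± 59.5), Cp18 (2943 ± 632), Cp19 (2864 ± 587) and Cp36 (2720 ± 562 CPM per kilobase). Among these chorion genes Cp38, Cp18, Cp19 and Cp36 overlapped within their SDs, and Cp15 lay above them by more than the SDs.

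**Figure D1:**
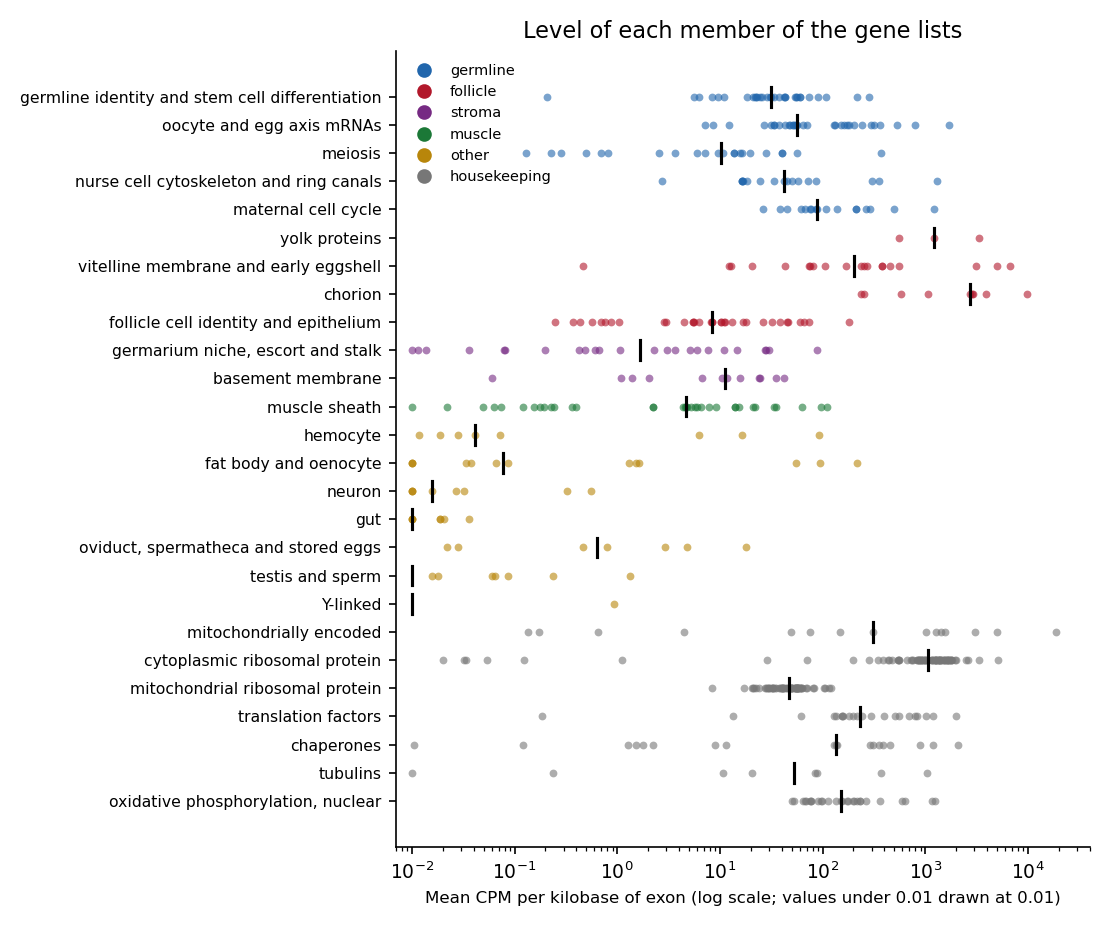
Each point is 1 member of a gene list that had a count, at its mean CPM per kilobase of exon over the 3 Input libraries (log scale), with rows for the lists, colours for their roles and a black tick at the median over all members found in the tables. Chorion genes lie highest, with a median of 2720 CPM per kilobase, and the gut, testis and Y-linked lists lie lowest.

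Genes were grouped into 27 lists by the cell type or process they are known for. Lists of germline genes (120 genes together) held 4.37% ± 0.0485 of the counts and lists of follicle cell and eggshell genes (66 genes) 4.78% ± 0.360 (SD, n = 3). The niche, escort, stalk and basement membrane lists (36 genes) held 0.185% ± 0.0148, the muscle list (35 genes) 0.198% ± 0.0200, and the housekeeping lists (251 genes) 18.6% ± 0.158. All lists together, 688 genes, covered 28.2% ± 0.354, so most of the counts belonged to genes in no list. Some listed genes matched no named ID, and each sum or share covers only the members found in the tables. These shares follow the genes listed and are not shares of cells, nor of germline or follicle cell RNA. The germline lists hold genes not restricted to the germline, such as the cytoplasmic actin gene Act5C and the mitotic cyclin gene CycB.

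Eggshell and yolk genes put many counts into few genes: the 9 chorion genes held 1.88% of the counts. The chorion proteins form the outer eggshell and are made in late egg chambers, where follicle cells amplify both chorion gene clusters, on X and on 3L. The sequences just upstream of some of these genes are shown because the TATA box motif was more frequent before eggshell genes than before expressed genes at large. They are a selection: all the eggshell and yolk windows printed below hold the motif except that of Cp38. The windows of Cp7Fc, dec and Yp1 also lacked it and that of Vm26Ab held it, and these are not printed. Bases -40 to -11 before the outermost annotated gene start were read from the Release 6 genome, the assembly behind dm6, on the strand of the gene, and are printed 5′ to 3′ with TATAAA in capitals.
Cp15 (chr3L:8728441-8728470, plus strand): aaaatttgcgTATAAAagcgagcgtttctg
Cp36 (chrX:8479279-8479308, plus strand): cagcgattataggcgcTATAAAgagccgga
Cp18 (chr3L:8726751-8726780, plus strand): ggatctggTATAAAaacaaaacattgcgcc
Cp19 (chr3L:8729825-8729854, plus strand): taaatttgcttaTATAAAgaagtgtgcttg
Cp38 (chrX:8481797-8481826, plus strand): tccggagcatatttaaagtagtcggccacc
Vm26Aa (chr2L:5960351-5960380, minus strand): ttggacagcTATAAAagatggccaattgaa
Vm34Ca (chr2L:13411642-13411671, minus strand): tgcatcgggtaTATAAAccgcaagtgtcga
Yp2 (chrX:10052647-10052676, minus strand): gattccaaggggTATAAAatgcattgagtc
The corresponding windows of 3 abundant maternal genes, given for contrast, hold no TATAAA.
tral (chr3L:12515019-12515048, plus strand): cgctttccaacaccgtcgaggctctcgctc
me31B (chr2L:10239301-10239330, plus strand): atctacaccgagtgaaaatattttccgagt
smg (chr3L:8998000-8998029, minus strand): caagaaagatcgactgtatcgagtacacat

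The motif count over whole lists went the same way. TATAAA on the strand of the gene lay in this 30-base window in 6 of 9 chorion genes and 1 of 3 yolk protein genes. It lay in 6 of 20 genes of the vitelline membrane and early eggshell list, which makes 40.6% of the 32 genes. It lay in 0 of the 33 oocyte and egg axis genes. Among all protein-coding genes with a window the share was 8.14% of 13630, among those of at least 10 CPM 2.60% of 6081, and among those under 1 CPM 13.5% of 6441. The motif was not particular to eggshell genes: it lay in 9 of 19 chaperone genes, 2 of 8 tubulin genes and 59 of 111 replication-dependent histone genes. Counted on both strands, the shares were 40.6% of the 32 eggshell and yolk genes, 0 of 33, and 3.67% of genes of at least 10 CPM. A second motif, TATCGATA, which reads the same on both strands and is known as the core of the DNA replication-related element, was looked for in the 250 bases before the start. It lay in 14.7% of genes of at least 10 CPM, in 1.69% of genes under 1 CPM and in 7.84% of all protein-coding genes. The translation factor list had it in 10 of 22 genes, the cytoplasmic ribosomal protein list in 21 of 88, the chorion list in 0 of 9 and the muscle list in 0 of 35. A match describes letters in a window and is not evidence of a bound factor.

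Among lists that summed to over 1000 CPM, the chorion list differed most between libraries. The 9 genes summed to 16729, 16683 and 23080 CPM in replicates 1, 2 and 3, a mean of 18831 ± 3680 CPM (SD, n = 3). Replicates 1 and 2 lay together and replicate 3 lay 1.38-fold above their mean; without replicate 3 the mean was 16796 CPM. Cp15 stood at 4337, 4699 and 6259 CPM, and Cp38 at 4480, 4056 and 6198 CPM. Cp36 stood at 2816, 2548 and 3743 CPM, Cp18 at 1501, 1908 and 2321 CPM, and Cp19 at 1764, 1542 and 2286 CPM. Replicate 3 was highest for 8 of the 9 chorion genes, Cp7Fb being the exception (457, 526 and 494 CPM), against 2868 of all 6278 genes of at least 10 CPM (2309 of 6278 with library totals in place of TMM, with the chorion count at 8 of 9 all the same). Among the other members, Cp7Fa stood at 249, 242 and 412 CPM, Cp16 at 495, 489 and 678 CPM, and Cp7Fc at 630, 672 and 689 CPM. The sums of the 2 gene clusters were both highest in replicate 3. Cp15, Cp16, Cp18 and Cp19 on 3L summed to 8097, 8639 and 11545 CPM, and Cp7Fa, Cp7Fb, Cp7Fc, Cp36 and Cp38 on X to 8632, 8044 and 11536 CPM. From replicate 1 to replicate 2 the 3L sum rose and the X sum fell. The chorion genes have a median exonic length of 1116 bases, and the length class that holds it, over 1000 and up to 2000 bases, had a median replicate 3 level 1.03 times the mean of the other libraries; the part of length in the chorion difference was not tested.

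The vitelline membrane and early eggshell list did not show this difference as a whole. Vitelline membrane genes are expressed before the chorion genes, and the list also holds other eggshell genes. Its 20 genes summed to 16742 ± 480 CPM, and its highest library was 1.05 times its lowest. Vm26Aa was at 3919, 3758 and 3523 CPM, Vm34Ca at 3043, 3180 and 3707 CPM, and dec, the defective chorion gene, at 2398, 2672 and 2793 CPM. Vm26Aa was lowest and Vm34Ca highest in replicate 3, so the members split. The 6 vitelline membrane protein genes Vm26Aa, Vm26Ab, Vm26Ac, Vm32E, Vm34Ca and Vml summed to 10322, 10288 and 10526 CPM. Of the list, 3 members did vary, all with replicate 3 highest and none of them among these 6 genes. They were yellow-g (326, 290 and 471 CPM) and its neighbour yellow-g2 (315, 261 and 438 CPM), genes of the yellow family needed for a rigid eggshell, and Femcoat (171, 173 and 285 CPM), an eggshell gene on X. Over the 19 members of at least 10 CPM, replicate 3 was highest for 11 and lowest for 7, against 2868 and 2080 of all 6278 genes.

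Yolk protein genes were even across libraries. Yp1, Yp2 and Yp3, whose lipase-related products are taken up by the oocyte, summed to 8429 ± 145 CPM. Yp2 was followed by Yp1 (1916, 1991 and 1978 CPM) and Yp3 (984, 1038 and 1060 CPM). Per kilobase the order was Yp2 (3362 ± 60.5), Yp1 (1218 CPM per kilobase) and Yp3 (550 CPM per kilobase), and the 3 libraries of neighbouring genes did not overlap. Yp1, unlike Yp2 and Yp3, shares 875 of its 1611 exonic bases with a gene annotated on the opposite strand. The level of Yp1 may therefore be understated, which was not tested. Yolk proteins are also made in the fat body, whose other markers are given below.

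Genes for follicle cell identity and epithelial polarity were detected at lower levels. The list summed to 3773 ± 96.2 CPM, with 33 of its 34 genes found in the tables at 1 CPM or more and 26 at 10 CPM or more. arm, the fly beta-catenin, led it with 659, 652 and 627 CPM. The polarity gene l(2)gl followed at 430, 444 and 450 CPM, the zinc finger repressor gene ttk at 287, 308 and 286 CPM, and the gap junction gene Inx2 at 251, 254 and 254 CPM. Several of these genes are also used in the germline, so the list does not isolate follicle cells. Replicate 3 was lowest for 19 of the 26, against 2080 of all 6278 genes; the 26 have a median exonic length of 6417 bases, and in the length class over 5000 and up to 10000 bases replicate 3 was lowest for 497 of 767. None varied by the rule used below.

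**Figure D2:**
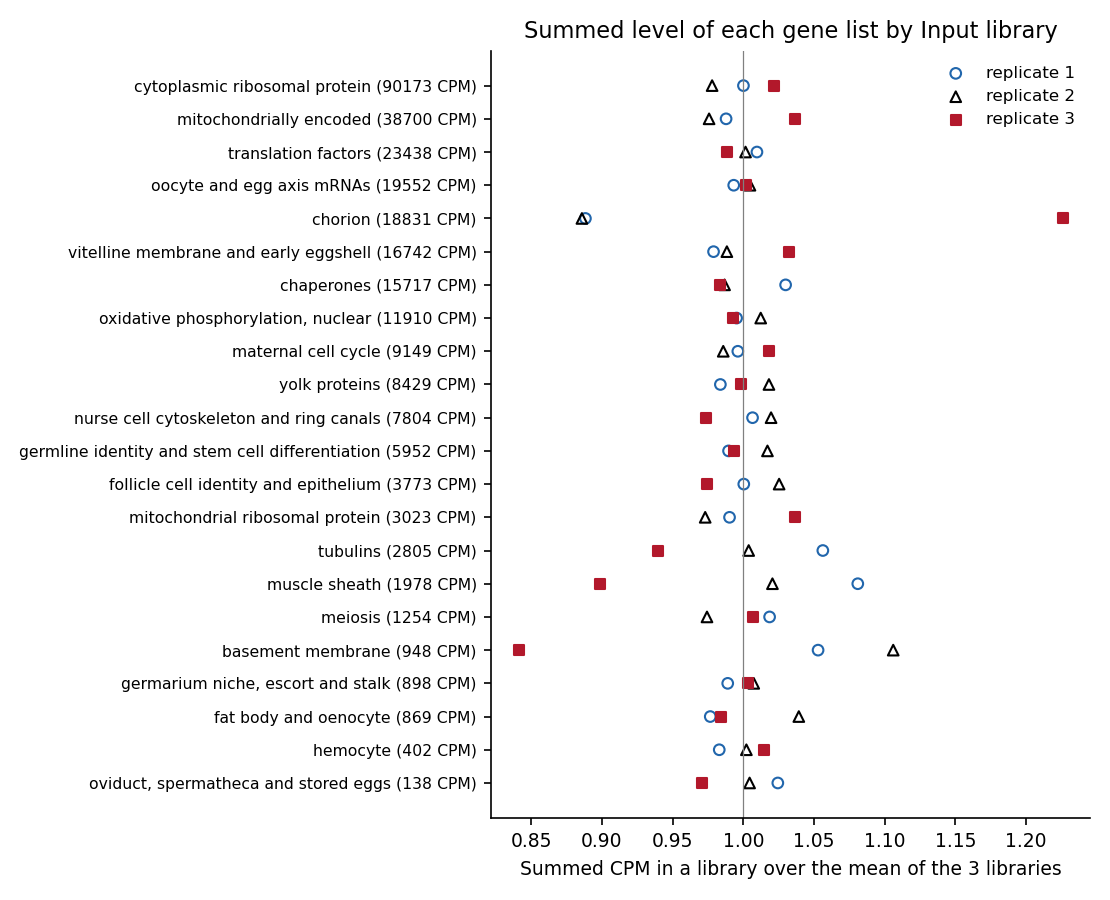
Each row is a gene list with at least 3 members of 10 CPM or more, named with its mean summed CPM, and the symbols give the summed CPM of each Input library divided by the mean of the 3. Replicate 3 lies furthest out for the chorion list (23080 CPM against a mean of 18831), the basement membrane list (797 against 948) and the muscle sheath list (1777.5 against 1978), while the germline lists lie close to 1.

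Transcripts of the germline lists were abundant and steady. The list of oocyte and egg axis mRNAs summed to 19419, 19644 and 19592 CPM, a mean of 19552 ± 117 CPM, so its highest library was 1.01 times its lowest. Its leading members were genes of translational repression in the egg. tral, a partner of the helicase Me31B in stored mRNA particles, was at 3279, 3376 and 3374 CPM. me31B itself was at 3039, 3070 and 3279 CPM, smg, a repressor that acts on maternal mRNA in the embryo, at 2176, 2201 and 2172 CPM, and sqd, an hnRNP gene needed to localise gurken mRNA, at 1818, 1904 and 1870 CPM. For all 4 the libraries lay within 1.08-fold of each other. Of the localised axis mRNAs, osk, which builds the germ plasm at the posterior pole, was at 1600, 1536 and 1410 CPM, bcd, the anterior determinant, at 86.3, 85.5 and 83.8 CPM, and grk, the dorsal and ventral axis signal, at 21.99, 20.6 and 20.5 CPM. osk shares 2251 of its 2869 exonic bases with another annotated gene on the same strand. Per kilobase, osk (528) was above bcd (33.6) and grk (12.2 CPM per kilobase), and the libraries of these genes did not overlap. Of 33 listed genes, 31 had a mean of at least 10 CPM and none varied.

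One gene of that list, cup, which encodes an eIF4E-binding repressor of osk, was listed at 0 in all 3 libraries. All 4306 of its exonic bases are shared with CG34310, annotated on the same interval (chr2L:6663664-6674780), which was listed at 3.87, 3.90 and 4.25 CPM. Over protein-coding genes, 93.8% of the 291 whose every exonic base is shared with another gene on the same strand were listed at 0, against 24.0% of the 9140 that share none, and 85.5% of the 69 that are covered on the opposite strand only. A 0 for such a gene is therefore not a measure of its level, and the counting options for overlapping genes and for strand were not given in the sources used here.

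Genes of germline identity and stem cell differentiation summed to 5952 ± 88.7 CPM, with 29 of 31 at 10 CPM or more. otu, the ovarian tumor gene needed for cyst development, led with 944, 991 and 967 CPM. brat, a translational repressor of the TRIM-NHL family, stood at 539, 549 and 543 CPM, mei-P26, a related TRIM-NHL gene, at 415, 447 and 431 CPM, and ovo, a germline transcription factor gene, at 417, 424 and 390 CPM. Genes of the piRNA pathway were in the same range, with del, a nuclear piRNA cluster factor, at 347, 357 and 358 CPM and piwi at 278, 286 and 270 CPM. bam, the switch from stem cell to cyst, is known to act in a few cells of the germarium, and it stood at 42.4, 46.0 and 46.1 CPM. Its partner bgcn was at 1.00, 1.10 and 0.472 CPM, below the 10 CPM minimum. The 1 member that varied was tut, an RNA-binding partner of Bam known from the male germline, at 7.53, 7.54 and 15.3 CPM. Replicates 1 and 2 lay close together for tut and replicate 3 lay above both.

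The remaining germline lists were also even. Maternal cell cycle genes summed to 9149 ± 150 CPM, and CycB, the mitotic cyclin gene with 3648, 3700 and 3709 CPM, made up 40.3% of the list. CycA was at 1448, 1414 and 1470 CPM, stg, the Cdc25 phosphatase gene, at 654, 630 and 652 CPM, and polo, a mitotic kinase gene, at 628, 620 and 657 CPM. The nurse cell cytoskeleton and ring canal list summed to 7804 ± 184 CPM, of which Act5C was 49.7%. chic, the profilin gene, followed in that list at 786, 789 and 810 CPM, then Act42A at 546, 617 and 551 CPM and Src64B, a kinase gene of ring canal growth, at 358, 385 and 381 CPM. The meiosis list was lower, at 1254 ± 28.8 CPM. Its leading gene was alphaTub67C, the maternal alpha-tubulin, at 621, 591 and 598 CPM. twe, the meiotic Cdc25 gene, was at 130, 130 and 141 CPM, sub, a kinesin gene of the meiotic spindle, at 97.6, 97.2 and 105 CPM, and nod, a chromokinesin gene, at 107, 93.6 and 97.0 CPM. None of the genes in these 3 lists varied.

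Genes listed for somatic support cells outside the epithelium held a small part of the counts, which does not measure the RNA that these cells gave. The germarium niche, escort and stalk list summed to 898 ± 8.73 CPM, and 11 of its 24 genes reached 10 CPM. fax, a gene of axon and escort cell membranes, led with 351, 360 and 383 CPM, followed by tkv, a BMP receptor gene that the germline also uses, at 123.4, 121.8 and 123.1 CPM. magu, a secreted regulator of BMP signalling, stood at 95.9, 96.7 and 96.4 CPM and zfh1, a zinc finger transcription factor gene, at 72.5, 77.8 and 75.7 CPM. In these 4 the highest library was at most 1.09 times the lowest.

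Basement membrane genes were lowest in replicate 3 throughout. The list summed to 998, 1048 and 797 CPM, a mean of 948 ± 133 CPM, and without replicate 3 the mean was 1029 CPM. Of the 13 genes listed, 1 matched no named ID, so it is in neither this sum nor the counts below. Col4a1 and vkg, the collagen IV genes, stood at 223, 249 and 176 CPM and at 160, 183 and 122.5 CPM. mys, the beta-integrin gene, stood at 189, 195 and 183 CPM, and LanA, the laminin alpha chain gene, at 136, 131 and 97.9 CPM. All 10 members of at least 10 CPM had their lowest level in replicate 3 under each of the 3 scalings tried, against 2080 of all 6278 genes (2655 with library totals), and their median replicate 3 level was 0.777 of the mean of the other libraries. These genes are long, with a median of 6088 exonic bases, and genes of over 5000 and up to 10000 bases had a median of 0.962; the part of length was not tested. Among the 12 members found, the 1 that varied was Ppn, the papilin gene of the extracellular matrix, at 21.9, 13.8 and 4.47 CPM, with no pair of libraries alike.

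Muscle genes were present at low levels and held more varying genes than any other list. The list summed to 2139, 2019 and 1777.5 CPM (1978 ± 184, SD, n = 3; 2090 without replicate 3), and 21 of its 35 genes reached 10 CPM. Of its 5 most abundant members, Tm1, Argk1, Actn and how did not vary and Act57B, given below, did. Tm1, a tropomyosin gene with non-muscle forms used in the oocyte, stood at 609, 628 and 628 CPM, and Argk1, the arginine kinase gene of ATP buffering, at 409, 391 and 357 CPM. Actn, the alpha-actinin gene, stood at 196, 186 and 180 CPM and how, an RNA-binding protein gene of muscle and tendon, at 110, 113 and 110 CPM.

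Of the 21, 10 varied, and in all of these replicate 1 was highest and replicate 3 lowest. Mhc, the muscle myosin heavy chain gene (chr2L:16766566-16788766), stood at 66.9, 38.0 and 20.01 CPM, with each library well apart. bt, which encodes a giant titin-related protein, stood at 16.2, 9.32 and 4.96 CPM, and the muscle actin genes Act87E and Act57B at 15.6, 12.7 and 7.60 CPM and at 208, 178 and 108 CPM. Prm, the paramyosin gene, was at 31.9, 26.2 and 17.5 CPM. The other varying members were Mf, Mlc1, Tm2, Mp20 and TpnC73F, with ratios of the highest to the lowest library from 1.53 to 1.58. Replicate 3 was lowest for 20 of the 21 members, the exception being Tm1, and replicate 1 highest for 16, against 2080 and 1931 of all 6278 genes. Their median exonic length was 3504 bases, in a length class whose median replicate 3 level was 0.990 of the other libraries, against 0.739 for the muscle list.

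**Figure D3:**
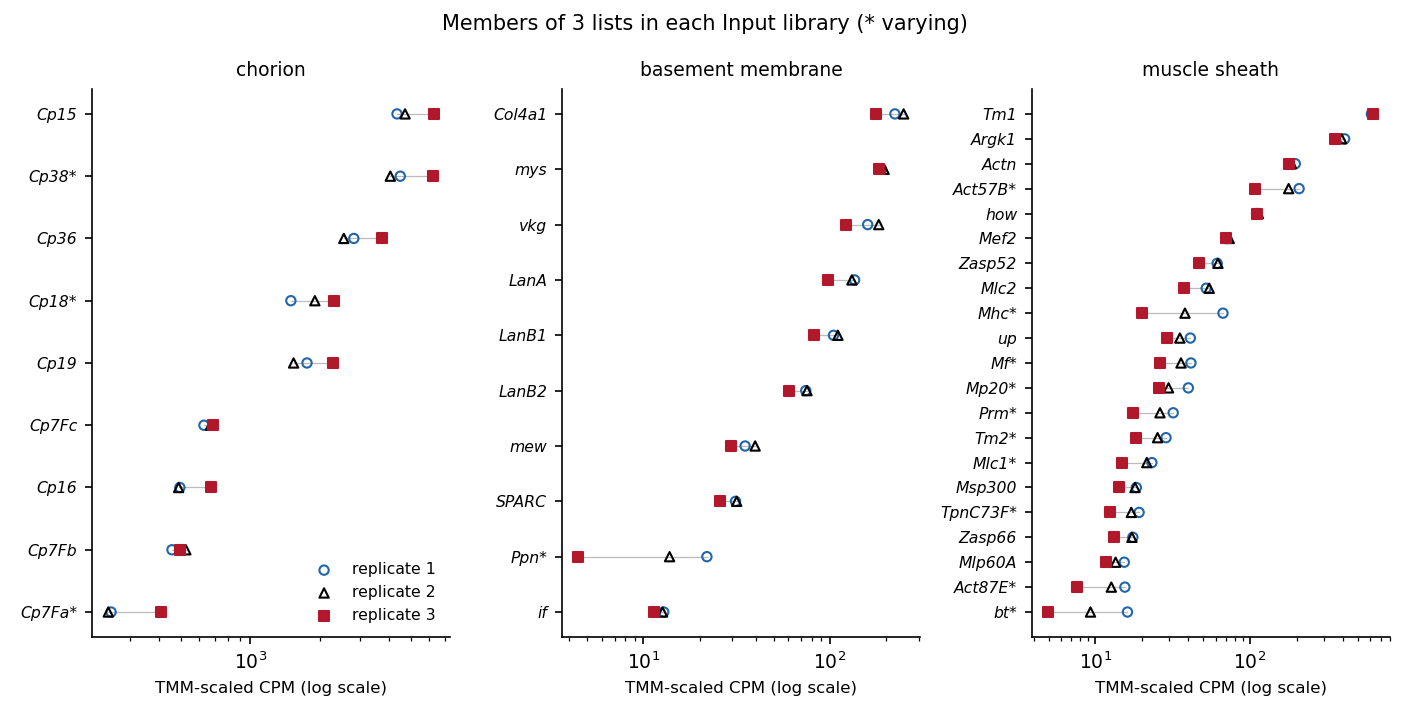
The panels give the TMM-scaled CPM (log scale) of each member of at least 10 CPM of the chorion, basement membrane and muscle lists, 1 symbol per Input library, with an asterisk on varying genes. Replicate 3 is the highest symbol for 8 of 9 chorion genes and the lowest for 10 of 10 basement membrane and 20 of 21 muscle genes.

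Markers of tissues that can adhere to a dissected ovary were near 0 for gut and neurons and mixed for blood cells, fat body and oviduct. The gut list summed to 0.210 ± 0.0403 CPM over 9 genes, of which 0 reached 1 CPM, and the neuron list to 10.7 ± 0.487 CPM, of which cac, a calcium channel gene, and elav, an RNA-binding protein gene, made up most at 6.60 ± 0.151 and 3.47 ± 0.240 CPM. Of the hemocyte list, Hml, NimC1 and eater, which define blood cells, were at most 0.280 CPM in each library, while crq (264 ± 8.45 CPM), a scavenger receptor gene, and srp (95.6 ± 13.4 CPM) and ush (41.6 ± 2.75 CPM), both transcription regulator genes used in other tissues, were above 10 CPM. In the fat body list the larval serum protein genes Lsp2 and Lsp1beta stood at 0.215 ± 0.152 and 0.103 ± 0.116 CPM. The 4 members of at least 10 CPM included Desat1, a fatty acid desaturase gene expressed in many tissues, at 523, 574 and 517 CPM, Idgf4, a chitinase-like growth factor gene, at 176, 168 and 175 CPM, and bmm, the triglyceride lipase gene brummer, at 133, 134 and 132 CPM. The fourth, apolpp, the lipoprotein gene of the fat body, varied with 10.6, 18.9 and 24.2 CPM. Of the oviduct and spermatheca list, the spermathecal genes Send1 and Send2 were at 0 and at 0.0170 ± 0.0294 CPM, and Mmp2, a matrix metalloprotease gene, varied with 26.3, 28.7 and 18.4 CPM. Hr39, a nuclear receptor gene, and Oamb, an octopamine receptor gene of the oviduct and the follicle cells, stood at 90.2 ± 2.74 and 16.3 ± 1.32 CPM.

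Male transcripts were close to absent. The testis and sperm list summed to 4.37 ± 0.363 CPM, with 9 of its 16 genes at 0 in all libraries, and mia (3.46 ± 0.177 CPM) accounted for 79.3% of it. Of 7 Y-linked genes in the tables, 6 had no count in any library and FDY stood at 1.17, 1.07 and 0.902 CPM. Histone genes of the replication-dependent clusters, whose mRNAs end in a stem-loop and not a poly(A) tail, had no count for 105 of 111 IDs and summed to 1.63 ± 0.291 CPM. The replacement histone genes, which are polyadenylated, were high: His3.3B stood at 776, 788 and 803 CPM and His2Av at 655, 656 and 727 CPM. The replication-dependent copies are near-identical, and how reads matching several copies were counted was not given in the sources used here.

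Translation and energy genes made up most of the listed counts. The 88 cytoplasmic ribosomal protein IDs found in the tables summed to 90173 ± 1983 CPM, 9.02% of the counts, with 80 of them at 10 CPM or more and none varying. RpLP0 led with 2579, 2647 and 2628 CPM, followed by RpL5 (2449, 2470 and 2639 CPM), sta (2492, 2402 and 2303 CPM) and RpS3A (2262, 2223 and 2450 CPM), and no member held over 2.90% of the list. The 22 of 24 translation factors found in the tables summed to 23438 ± 247 CPM; eEF1alpha1 and eIF5A matched no named ID and are not in this sum. Among those found, the highest were eEF2, pAbp (3079, 2991 and 2901 CPM), the poly(A)-binding protein gene, eEF1gamma (2006 ± 12.9 CPM) and eIF4A (1977 ± 31.5 CPM), an initiation helicase gene. In that list eIF4B varied at 18.7, 27.8 and 31.3 CPM. Chaperones summed to 15717 ± 408 CPM, led by Hsc70-4, Hsp83, the Hsp90 gene (3722, 3367 and 3446 CPM), Hsc70-3 (1630 ± 24.0 CPM), the chaperone of the endoplasmic reticulum, and Droj2, a DnaJ gene (928 ± 16.4 CPM). Hsp23 varied at 12.4, 9.78 and 7.97 CPM. The small heat shock gene Hsp26 stood at 898, 869 and 917 CPM.

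Mitochondrially encoded transcripts summed to 38700 ± 1240 CPM and mt:lrRNA made up 64.5% of them. The protein-coding members mt:CoI, mt:CoIII and mt:ND1 (1230, 1123 and 1235 CPM) differed by at most 1.12-fold across libraries. The 3 that varied were mt:Cyt-b at 1112, 914 and 1425 CPM, mt:ND2 at 32.1, 27.9 and 91.4 CPM, and mt:ND3 at 23.5, 12.1 and 44.8 CPM, all with replicate 2 lowest and replicate 3 highest. Replicate 3 was highest for 10 of the 11 members of at least 10 CPM, against 2868 of all 6278 genes (8 of 11 against 2309 with library totals, 9 of 11 against 2603 with DESeq2 size factors). Nuclear genes of oxidative phosphorylation summed to 11910 ± 128 CPM and none of the 28 varied. Their leading members were sesB, the ADP/ATP carrier gene (2410, 2540 and 2504 CPM), ATPsynC (2111, 2181 and 2206 CPM), ATPsynbeta (1519 ± 18.5 CPM) and blw (1348 ± 60.2 CPM), genes of the ATP synthase. Mitochondrial ribosomal proteins summed to 3023 ± 99.4 CPM over 71 genes, led by mRpS30, mRpL37, mRpS7 and mRpL12 (145, 142, 107 and 89.1 CPM on average), and mRpL33 varied at 10.96, 13.9 and 19.0 CPM. The 8 of 10 tubulin genes found in the tables summed to 2805 ± 163 CPM, with alphaTub84B (1964, 1853 and 1681 CPM) at 65.3% of that sum; betaTub56D and betaTub60D matched no named ID and are not in it. gammaTub37C, the maternal gamma-tubulin gene, stood at 144, 140 and 148 CPM.

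A gene was counted as varying when its mean was at least 10 CPM and its highest library was at least 1.5 times its lowest. By this rule 67 of 6278 genes varied, which is 1.07%; the median ratio over all 6278 was 1.08 and the median CV 3.92%. Against that background the muscle list had 10 of 21, the chorion list 3 of 9 and the mitochondrially encoded list 3 of 11. The vitelline membrane and early eggshell list had 3 of 19. The germline identity list had 1 of 29, and the oocyte, meiosis, nurse cell and maternal cell cycle lists 0 of 31, 13, 17 and 17. Counts this low do not set the germline lists apart from the 1.07% over all genes. Just inside the threshold lay Lip4, CG18508 and CG2021 (ratios 1.511, 1.503 and 1.501), and just outside it Adgf-A, fuss and vkg (1.497, 1.496 and 1.493). Replicate 3 was the highest library for 33 of the 67 and the lowest for another 33, each set being 0.526% of the 6278. Over all 6278 genes, varying or not, replicate 3 was highest for 2868 and lowest for 2080. Being highest in replicate 3 therefore does not set the 67 apart from all genes. In 38 of the 67 replicates 1 and 2 lay within 1.2-fold of each other, a count that was not made over all genes. The 33 with replicate 3 highest had a median exonic length of 1164 bases and the 33 with replicate 3 lowest one of 3265 bases, against 2248 bases over all genes of at least 10 CPM. Without replicate 3 the rule picked 10 genes, all of them among the 67.

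**Figure D4:**
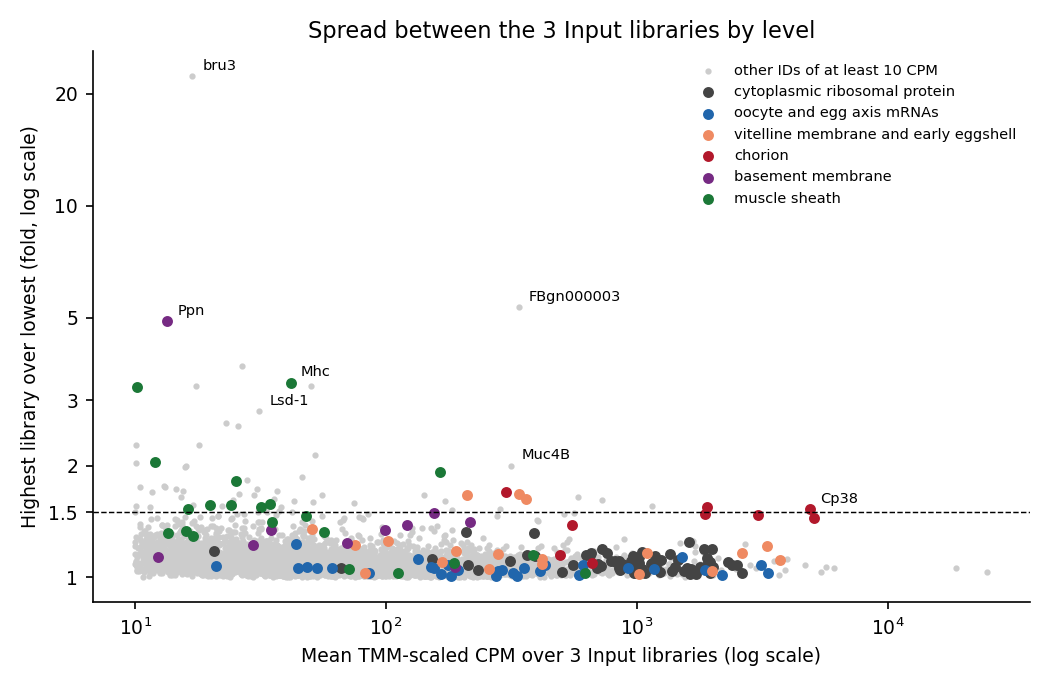
Each point is an ID of at least 10 CPM, with its mean CPM over the 3 Input libraries on the x axis and the ratio of its highest to its lowest library on the y axis (both log scales), and the dashed line marks the threshold of 1.5. Most points lie near the median ratio of 1.08, the ribosomal protein and oocyte mRNA lists stay below the line, and bru3 lies furthest above it.

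The widest ratio belonged to bru3 (chr3L:13521907-13803400, minus strand), which encodes an RNA-binding protein of the Bruno family and is distinct from bru1, the oskar repressor. bru3 stood at 45.6, 3.03 and 2.04 CPM (1955, 119 and 95 counts). Replicate 1 alone was high, 15.0-fold above replicate 2 when these were scaled without replicate 3. bru1 in the same libraries stood at 1205, 1174 and 1141 CPM. The ID FBgn000003, which has too few digits for a FlyBase gene ID and no name in the annotation, followed with 291, 608 and 114 CPM, with each library far from the others. After Ppn came mt:ND3, Mhc, stv, mt:ND2 and bt. stv, the gene of the co-chaperone Starvin known from muscle, stood at 28.5, 15.4 and 8.70 CPM, the same order of libraries as Mhc and bt.

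Lsd-1, a perilipin gene of lipid droplets, stood at 31.1, 46.0 and 16.4 CPM and CG13321 at 29.2, 28.5 and 11.3 CPM, both lowest in replicate 3. FBgn0085799, an ID without a name here, stood at 28.7, 13.7 and 34.9 CPM, CG8745 at 12.5, 12.2 and 5.52 CPM and CG4822 at 17.5, 20.2 and 10.1 CPM. Others were highest in replicate 3. Muc4B, a mucin-related gene that neighbours Femcoat on X, stood at 281, 222 and 443 CPM, CG15571 at 40.9, 36.7 and 78.2 CPM, and bnb at 11.7, 12.8 and 23.1 CPM. Among the more abundant varying genes outside the lists, CG13083 (599, 607 and 966 CPM) and CG13114 (528, 463 and 764 CPM), were also highest in replicate 3; they were chosen after their values were seen.

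**Figure D5:**
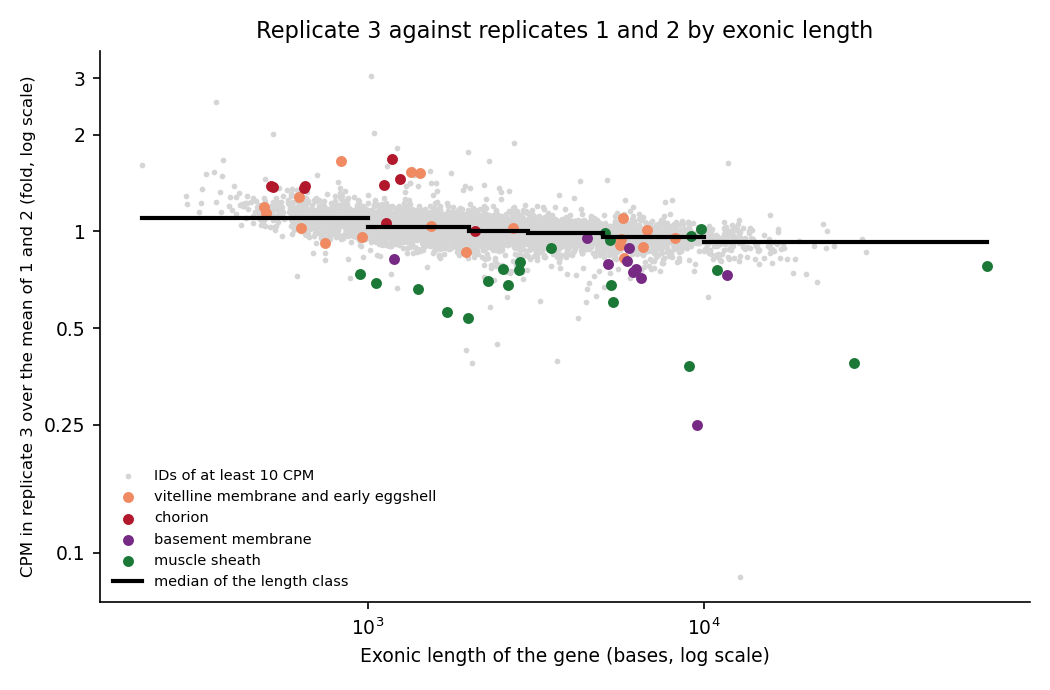
Each point is an ID of at least 10 CPM with an annotated length, with its exonic length in bases on the x axis and its CPM in replicate 3 divided by the mean of replicates 1 and 2 on the y axis (both log scales), and black bars give the median of each length class. The bars run from 1.10 for the shortest class to 0.929 for the longest, and the chorion genes lie above and the muscle and basement membrane genes below the bars of their classes, with few exceptions.

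Without replicate 3, the 10 genes that still varied were bru3, FBgn0085799, FBgn000003, mt:ND3, stv, apolpp, Mhc, bt, Ppn and amd, a gene of the Dopa decarboxylase family with 14.2, 22.3 and 14.4 CPM. No gene of the chorion list or of the vitelline membrane and early eggshell list was among them, and 2 of the 10 muscle genes were. The ratio of replicate 1 to replicate 2 was 1.76 for Mhc and 1.73 for bt, so for these 2 genes the difference was also present between the libraries that lay closest together.

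Long noncoding RNAs were a minor part. Of 2062 IDs annotated as ncRNA, 90 had a mean of at least 1 CPM. lncRNA:CR42862 was the most abundant at 534, 543 and 443 CPM, and lncRNA:CR45102 followed at 64.1, 68.7 and 70.2 CPM. The 2 that varied were lncRNA:Hsromega, the heat shock RNA omega, at 45.5, 39.2 and 29.4 CPM, and lncRNA:CR40469 at 27.2, 23.5 and 40.8 CPM. Of 312 tRNA IDs and 31 snRNA IDs, which are not polyadenylated, 0 reached 1 CPM.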

How the data were processed

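For each library the authors deposited unnormalized whole-number counts by FlyBase gene; the submitters' processing notes name HISAT2 2.1.0, featureCounts 1.4.6 and the dm6 build, and the strand and multiple-mapping settings were not given in the sources used here. Per the labels, TRIzol extracts were freed of DNA, selected for poly(A) and made into directional libraries after 13 minutes of fragmentation. The 3 Input tables were joined by ID, grouped by title and source label, and scaled by TMM in edgeR 4.0.16 (R 4.3.3). CPM is the count per 1000000 scaled counts. The common dispersion was fitted with an intercept only on the 8236 genes that passed edgeR's filter with a minimum count of 10. Names, exons and positions of 16647 of 17024 IDs came from Ensembl's BDGP6 annotation; the 377 others, with 5.48% of counts, have no length. CPM per kilobase used the union of exons. Sequences came from the RefSeq Release 6 genome. The members and lists were chosen with earlier results of these data known. Named genes were the 20 most abundant, the 4 highest and the varying members of each list, the 20 of widest ratio, and ais; other genes were chosen after their values were seen. Floors cover counting error only, since PCR copies are not independent molecules. Alternatives tried were library totals, DESeq2 1.42.0 size factors, other minimums and ratios, levels per kilobase, and leaving out each replicate. No test was run, since there was 1 group.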

Additional observations from a re-analysis of the deposited data

How the results depend on the processing

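No paired analysis was possible because only 1 group was used. Of 159 recomputed values, 149 stayed within the spread between replicates or within 1.5 times the main count. This tally is a weak check, since leaving out 1 of 3 libraries can hardly move a list mean by the SD of the 3. The chorion sum counted as unmoved at 16796 CPM without replicate 3, against 18831 ± 3680 CPM with it. The number of varying genes was 67; it ranged from 10 to 54 when each replicate was left out, the lowest without replicate 3, without replicate 1 it was 44 and without replicate 2 it was 54. It was 364 with a minimum of 1 CPM, 21 with a minimum of 50 CPM and 4526 with no minimum. A lower threshold on the ratio gave 323 genes and a ratio of 2 gave 16. Library totals gave 69 genes and DESeq2 size factors 67, each sharing 65 with the main set. The biological coefficient of variation ranged from 0.0403 to 0.0867 when each replicate was left out. The translation factor sum ranged from 23276 to 23697 CPM when each replicate was left out. Ranking per kilobase kept 12 of the 20 most abundant IDs; FBgn0000556 has no length and could not be placed. Leaving out FBgn000003, chosen after seeing the data, left 66 varying genes. Below about 0.0769 CPM the depth shows no difference.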
